A study of Labroides dimidiatus with 23 samples.

Results

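Of 52979 regions of called H3K27ac peaks in the forebrain of adult cleaner wrasse (Labroides dimidiatus), 11526 were found in only few libraries, and these are described here and called members. Regions were built from bases under the peaks of at least 3 of 22 libraries. Stretches no more than 200 bp apart were merged, and regions were kept at 200 bp or longer outside the mitochondrial genome. A region was present in a library where that library's peaks covered at least 50% of its bases. Members were present in 3 to 5 of the 22 libraries and in at most 1 of 3 named libraries, control 30 replicate 3, familiar 30 replicate 4 and familiar 120 replicate 3. Members were thus chosen by the presence of called peaks. The number of libraries, the length of regions and the strength of the same peaks are therefore given as a description with no test.

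Acetylation of lysine 27 on histone H3 is laid down by the related acetyltransferases CBP and p300 and marks promoters and enhancers in use. In neural tissue, acetylation at enhancers near activity-regulated genes is known from rodents to change with neuronal activity. In CUT&RUN a nuclease tethered to the antibody cuts bound chromatin free for sequencing, and a peak caller then reports stretches enriched above background. A broad peak joins neighbouring enriched stretches, so its edges, as well as its existence, depend on signal near the caller's limit.

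All fish went through a test of preference between client fish, the reef fish from which cleaner wrasse pick parasites. Familiar fish had met 1 of the clients before, and for control fish both clients were new. Each title also carried the number 30 or 120, for which no unit is given, and which is called the time label here. Of the 23 libraries, 11 were labelled 30 (6 from familiar and 5 from control fish) and 12 were labelled 120 (6 from each). No strain, sex or age beyond adult is given in the labels used here, and nothing states how many fish each library holds. A whole forebrain mixes many cell types, so a mark in fewer cells and less of the mark per cell cannot be told apart. The labelled tissue was not checked against marker genes, because no gene annotation was used here.

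Each library came as its own list of broad peaks, and read depth is unknown. The 22 lists used held 34714 to 48264 peaks over 67.3 to 95.2 Mb. The library left out of the 22, familiar 30 replicate 2, listed 7077 peaks over 4.70 Mb. Familiar 120 replicates 3 and 4 had the shortest covered length of the 22, at 67.3 and 69.9 Mb, and the next shortest was 78.7 Mb in control 120 replicate 3. The 3 libraries named in the rule belong to 3 different groups.

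Members made up the left end of a distribution with high counts at both ends. Of the 11526 members, 4222 (36.6%) were present in 3 libraries, 4018 (34.9%) in 4 and 3286 (28.5%) in 5. In all, 14762 regions were present in 3 to 5 libraries, and 3236 of them were left out because they were shared by the named libraries, 1516 by 2 of the 3 and 1720 by all 3. Just inside and outside the limits, 5828 regions were present in 3 libraries against 436 in 2, and 4014 in 5 against 3280 in 6. The low count at 2 follows from the construction of regions, which needs 3 libraries at each base. Among the members, 3523 were present in exactly 1 of the 3 named libraries.

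**Figure D1:**
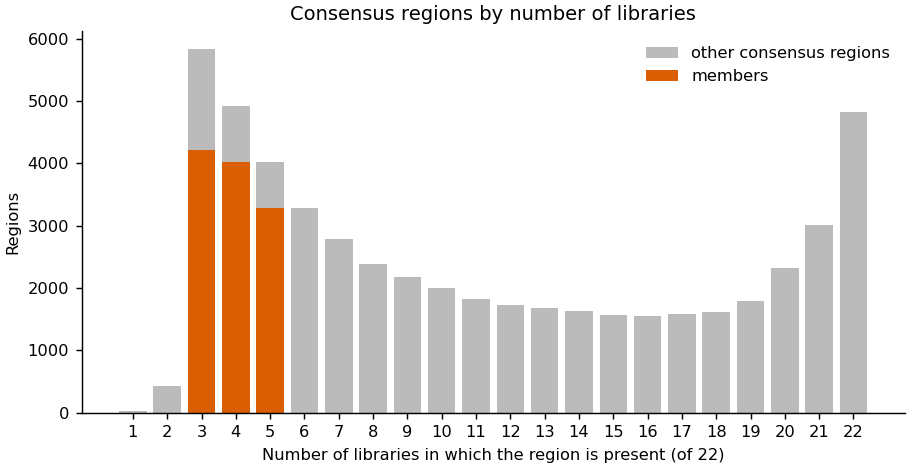
Consensus regions (y axis, number of regions) by the number of the 22 libraries in which they were present (x axis), with members as the orange part of each bar. Members fill most of the bars at 3, 4 and 5, with 4222, 4018 and 3286 regions, and the grey part of those bars is the 3236 regions shared by the 3 named libraries.

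Members were short. Together they spanned 8.59 Mb, with a median length of 549 bp (quartiles 335 and 903 bp, range 200 to 10486 bp). Of the members, 78.9% were under 1 kb and 1.28% were 3 kb or longer. Regions present in 6 to 16 libraries had a median length of 1308 bp, those in 17 to 21 a median of 2496 bp, and those in all 22 a median of 3173 bp. Length also rose within the members with the number of libraries, from a median of 378 bp at 3 libraries to 570 bp at 4 and 715.5 bp at 5. The neighbours outside the limits had medians of 661.5 bp at 2 libraries and 901.5 bp at 6. A region holds only bases under the peaks of at least 3 libraries, so it can widen as more libraries have peaks there. The shortness of members and the rise in length are thus in part built into the construction of regions.

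Members lay among other called regions on every chromosome. The median gap from a member to the nearest other region was 2329 bp, against 2158 bp for regions present in 6 to 16 libraries. It was 1851 bp for regions in 17 to 21 libraries and 1899 bp for those in all 22. A neighbour lay within 1 kb of 19% of members, and 13.6% of members had none within 10 kb. The nearest region present in all 22 libraries was a median of 49644 bp away, and for regions present in 6 to 16 libraries this distance was 43314.5 bp. Members were thus about as close to their next neighbour as regions present in 6 to 16 libraries, and somewhat farther from it than the most widely shared regions. The nearest region shared by every library lay far off for members and for regions present in 6 to 16 libraries. The distance was shorter but still long for regions in 17 to 21 libraries (33851 bp) and, to another such region, for those in all 22 (26402 bp).

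By chromosome, members were a similar share of the regions. All but 5 members lay on the 24 numbered chromosomes. Members were 17.5% of the regions of chromosome 24 and 18.8% of those of chromosome 21, the lowest shares, and 24.2% on chromosome 2 and 24.4% on chromosome 19, the highest. Chromosomes 24 and 21 also had the most regions present in all 22 libraries per Mb, at 11.1 and 10.4, and chromosomes 19 and 2 the fewest, at 4.32 and 5.08. Per Mb up to the last peak, chromosome 1 held 14.3 members and chromosome 20 held 19.7. In windows of fixed size, the most members fell on chromosome 3 from 16500001 to 17000000, where 29 of 76 regions were members, and the median window held 8.

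The peaks that made a member present were among the weaker ones of each list. The peak caller gives a -log10 q value and a fold enrichment for each peak, as listed by the authors. For a member present in the library, the highest of each was taken over all peaks that touched it. The highest -log10 q and the highest fold need not come from the same peak. No listed -log10 q was below 1, a q of 0.1. The median -log10 q at members was 1.66 over the 22 libraries, and ranged from 1.48 in control 30 replicate 2 to 2.07 in familiar 120 replicate 3. In regions present in 6 to 16 libraries the same median ranged from 2.10 to 4.08, and in regions present in all 22 from 6.72 to 13.1. Each library gave the same order of the classes.

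The fold enrichment showed the same order. Its median at members ranged from 2.21 to 2.54 across libraries, from 2.49 to 3.19 in regions present in 6 to 16, and from 4.04 to 5.06 in regions present in all 22. Regions under 1 kb that were present in all 22 libraries had median -log10 q values of 4.31 to 10.4, above those at members in every library. Within a library's own list, the median member peak stood at percentile 16.5 to 32.0 by -log10 q. A touching peak with a -log10 q of at least 5 was found in at least 1 library of presence for 753 members (6.53%), and in every one for 19 (0.165%).

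**Figure D2:**
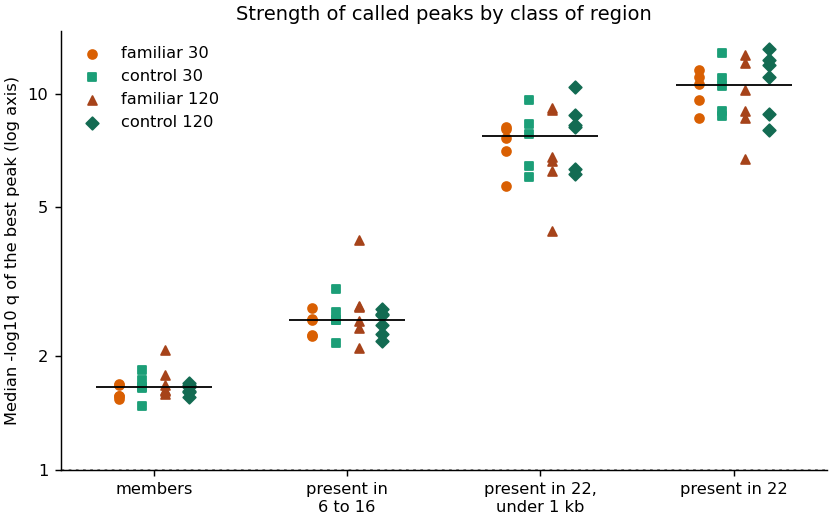
Median of the authors' -log10 q (y axis, log scale) of the strongest peak touching a region present in the library, for 4 classes of region (x axis). Each point is 1 of 22 libraries, with colour and shape for the group, and the black line is the median over libraries (1.66 for members). Every library's value for members lies below its own value for regions present in 6 to 16 libraries.

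The library that took no part in the choice, familiar 30 replicate 2, touched few members. Its peaks covered at least 1 base of 24 members (0.208%), against 2.43% of regions present in 6 to 16 libraries, 19.6% of those in 17 to 21 and 50.7% of those in all 22. Among regions under 1 kb the shares were 0.121%, 0.358%, 4.07% and 10% in the same order. It had 6 members present (0.0521%), against 0.0354% of regions present in 6 to 16 libraries, 0.194% of those in 17 to 21 and 1.74% of those in all 22. By presence, members were thus not below regions present in 6 to 16 libraries. This list is far shorter than the others, and only 1 library stands behind these shares, so no test was made.

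In most libraries a member was either covered or free of peaks. Of the 253572 values of cover, 1 for each member and library, 45168 were present, and 40.3% of these were covered over the full length. Of the values that were not present, 85.5% were at 0. No further library touched 4003 members (34.7%) with even 1 base beyond those in which they were present. At the other end, 1216 members (10.6%) were touched in 12 or more libraries, where a peak covered under 50% of the bases in most.

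How many libraries touched a member went with its length and with the strength of its best peak. For the strength, only peaks with at least 50% of their own width within the member were counted, in any of the 22 libraries, while 1 base was enough to touch. The classes were chosen after the values were seen. More touching libraries give more peaks to take the strongest from, and a longer member more easily holds 50% of a peak. The rise in strength is thus in part built into the measure. A longer member is also more easily touched by 1 base, so the link with length is in part built in too. The 6225 members touched in 3 to 5 libraries had a median length of 351 bp, and 62 of them (0.996%) held a peak with a -log10 q of at least 5. Members touched in 6 to 11 libraries numbered 4085, with a median of 795 bp and 50 such peaks (1.22%). Those touched in 12 to 21 numbered 1144, with a median of 1808 bp, and 143 (12.5%) held such a peak. All 22 libraries touched 72 members, whose median length was 2669.5 bp, and 57 of these (79.2%) held one. Members thus included a small number of longer regions that every library touched and that few covered by 50% or more.

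The 5 longest members were touched in 13 to 22 libraries. The longest lay on chromosome 1 from 15463861 to 15474346 (10486 bp) and was touched in all 22 libraries. Its cover was 25.1, 23.4, 30.4, 27.5 and 19.4% in the familiar 30 libraries (replicates 1, 3, 4, 5 and 6). In the control 30 libraries it was 29.3, 34.1, 46.8, 36.0 and 46.5% (replicates 1 to 5). In familiar 120 libraries it ranged from 5.74 to 72.2% with a median of 50.9%, and in control 120 libraries from 15.7 to 60.3% with a median of 26.2%. It was present in familiar 120 replicates 2, 3 and 6 and in control 120 replicate 6, and the groups overlapped.

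The next longest members were on chromosome 5 from 18904870 to 18913030 (8161 bp, touched in 17 libraries), chromosome 1 from 15948212 to 15954875 (6664 bp, 22 libraries), chromosome 14 from 18929911 to 18936349 (6439 bp, 13 libraries) and chromosome 1 from 26456371 to 26462732 (6362 bp, 22 libraries). Their libraries of presence came from 2 or more groups in each case. The strongest peak lying at least 50% within them, in any library and not only those of presence, reached a -log10 q of 2.76, 2.98, 2.32 and 6.45.

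The members with the strongest peaks fell into 2 kinds. The first kind was short and had no peak in most libraries. The highest -log10 q, 54.9 in control 120 replicate 2, was at a member of 202 bp on chromosome 2 from 639093 to 639294. It was also present in familiar 30 replicate 3 (95% covered, -log10 q 11.7) and familiar 120 replicate 4 (100%, under a peak that lay mostly outside the member). Familiar 30 replicate 6 covered 3.47%, and the other 18 libraries had no peak there.

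The next, 221 bp on chromosome 14 from 29700864 to 29701084, reached a -log10 q of 42.6 in control 120 replicate 2. It reached 14.3 in control 120 replicate 5, 8.94 in familiar 30 replicate 1, 7.11 in control 30 replicate 5 and 6.18 in familiar 120 replicate 4. These 5 libraries, from all 4 groups, covered it by 96.4 to 100%, and no other library had a peak there. Its nearest other region was 55523 bp away.

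The second kind was longer and had a peak in all 22 libraries that covered less than 50% in most. On chromosome 5 from 33931351 to 33932627 (1277 bp, highest -log10 q 35.4), 5 libraries covered 77.4 to 98.6% and the other 17 covered 29.6 to 43.2%. On chromosome 10 from 33386714 to 33388270 (1557 bp, 28.4), 3 libraries covered 98.8 to 99.5%, 2 covered 50.4 and 50.5%, and 17 covered 32.4 to 49.6%. On chromosome 17 from 1479509 to 1484952 (5444 bp, 29.01), cover ran from 20.7 to 88.9%, with 5 libraries above 50%. At these 3 members no library was without a peak, and libraries differed in how much of the member the peak spanned. The highest -log10 q came each time from a library in which the member was not present. These were familiar 30 replicate 4, control 120 replicate 4 and control 30 replicate 3, in the order given.

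The number of members present differed more between the libraries of 1 group than between groups. It was 2209, 2561, 1661, 2707 and 1680 in the familiar 30 libraries (replicates 1, 3, 4, 5 and 6) and 1927, 1573, 1491, 2523 and 2735 in the control 30 libraries. In familiar 120 libraries it ranged from 371 in replicate 3 and 851 in replicate 4 to 2622, with a median of 2255. In control 120 libraries it ranged from 1304 to 2659, with a median of 2337. All 4 groups overlapped. The rule itself lowers the numbers of the 3 named libraries, 1491, 1661 and 371.

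No comparison of groups separated the libraries by this number. Familiar 30 libraries had 2164 ± 485 members present (SD, n = 5) and control 30 libraries 2050 ± 559 (n = 5), with p = 0.746 in a two-sided exact permutation test. Familiar 120 libraries had 1828 ± 975 (n = 6) and control 120 libraries 2189 ± 539 (n = 6), p = 0.448 in the same exact test. The exact p for 120 against 30 was 0.684 in controls and 0.502 in familiar fish, and the Benjamini-Hochberg value over the 4 comparisons was 0.746 for each. Without the 3 named libraries, familiar minus control was 99.8 at 30 and -70.2 at 120. The direction at 30 turned when any of 3 libraries was left out, with differences of -5.40 (control 30 replicate 2), -25.9 (control 30 replicate 3) and -22.1 (familiar 30 replicate 5). Without familiar 120 replicate 3, the difference at 120 was -70.2, against -362 with it.

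By the ranges of fish numbers in the titles, which the labels do not call batches, familiar and control differed in both directions. At 30, familiar minus control was 447 in the range 43 to 59 and -436 in the range 69 to 80, and the range 17 to 29 holds no control library. At 120 it was 356 in the range 17 to 29, -1561 in 43 to 59, which holds both familiar libraries with the shortest covered length, and -111 in 69 to 80. As a share of each library's covered length, members took 0.694 to 2.65%. That share was 2.23 ± 0.319% in familiar 30, 2.16 ± 0.415% in control 30, 1.95 ± 0.762% in familiar 120 and 2.27 ± 0.345% in control 120 libraries, and its adjusted exact permutation p was 0.746 in each of the 4 comparisons.

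Libraries with more genome under peaks had more members present. Across the 22 libraries, Pearson's r between members present and covered length was 0.865 and Spearman's rho 0.773. These values are a description with no test, because the peaks that chose the members are among those that make up covered length. Without the 2 libraries farthest from the median covered length, familiar 120 replicates 3 and 4, r was 0.690 and rho 0.698. Without the 3 named libraries r was 0.908. Within ranges of fish numbers r was 0.869 from 43 to 59 (n = 10) and 0.968 from 69 to 80 (n = 7), and the range 17 to 29 holds too few libraries. Members' own bases are part of covered length, at the shares given above.

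**Figure D3:**
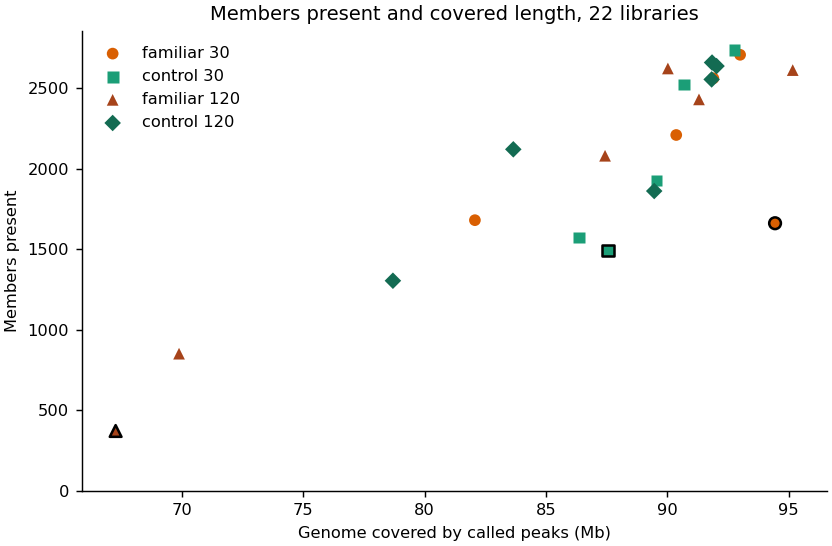
Members present (y axis, number) against the genome covered by called peaks (x axis, Mb, not starting at 0) in 22 libraries, with colour and shape for the group and a black outline for the 3 libraries named in the rule. Familiar 120 replicates 3 and 4 lie at the lower left with 371 and 851 members, and the next lowest is 1304 in control 120 replicate 3.

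Libraries of the same group did not share more members than libraries of different groups. Sharing was measured by the Jaccard index, the number of members present in both libraries over the number present in either. Over the 228 pairs other than those among the 3 named libraries, it had a median of 0.0754 and ranged from 0.0185 to 0.167. Within groups at 30 the mean was 0.0765 and between familiar and control 0.0788 (one-sided exact permutation p = 0.587). At 120 the means were 0.0698 within and 0.0707 between groups (exact permutation p = 0.558). Within ranges of fish numbers the mean was 0.0712 and between ranges 0.0765 (permutation p = 0.906 with 100000 resamples). Unlike the median above, these means and tests kept the pairs among the 3 named libraries, which the rule holds at 0. All of these pairs lie within the same range of fish numbers and lower the mean within ranges. The test of ranges thus cannot decide whether libraries of the same range share more members. At 30, control 30 replicate 3 with familiar 30 replicate 4 is such a pair and lowers the mean between groups. At 120 there is no such pair. The adjusted values over these 3 tests were 0.881, 0.881 and 0.906.

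Some pairs of libraries from different groups shared many members. Familiar 30 replicate 1 and control 30 replicate 4 shared 678, a Jaccard index of 0.167 and the highest of all pairs, which is 30.7% of the members of the former and 26.9% of those of the latter. On the 24 chromosomes taken singly the index of this pair ranged from 0.124 to 0.23. Familiar 30 replicate 3 and familiar 120 replicate 6 shared 673 (0.149). Familiar 120 replicate 5 shared 635 members with control 30 replicate 4 (0.147) and 574 with familiar 30 replicate 1 (0.141). Control 120 replicate 6 shared 632 with familiar 30 replicate 3 (0.138). Pairs across these sets shared fewer. The lowest were familiar 30 replicate 1 with familiar 120 replicate 6 (217 members, 0.0470) and with familiar 30 replicate 3 of its own group (244 members, 0.0539). The highest was control 30 replicate 4 with control 120 replicate 6 (406 members, 0.0854), above the median of 0.0754.

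These libraries thus formed 2 sets by their shared members, 1 of familiar 30 replicate 1, control 30 replicate 4 and familiar 120 replicate 5, and 1 of familiar 30 replicate 3, familiar 120 replicate 6 and control 120 replicate 6. The sets were not closed, since familiar 30 replicate 5 had an index of 0.127 both with control 120 replicate 6 and with familiar 120 replicate 5. Other pairs were as close: control 30 replicate 5 had an index of 0.131 with control 120 replicate 5 and 0.127 with familiar 120 replicate 1. Control 120 replicate 5 in turn had 0.123 with familiar 120 replicate 6. The 2 sets were picked after their values were seen and carry no test, and their number depends on where the list of pairs stops. For 3 of the 22 libraries the partner with the highest index was in the same group, and for 5 it was in the same range of fish numbers. Regions present in 6 to 16 libraries, which hold no member, ordered the pairs much the same way: across the 228 pairs, which share libraries and covered length, Pearson's r between both indices was 0.909 and Spearman's rho 0.926.

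**Figure D4:**
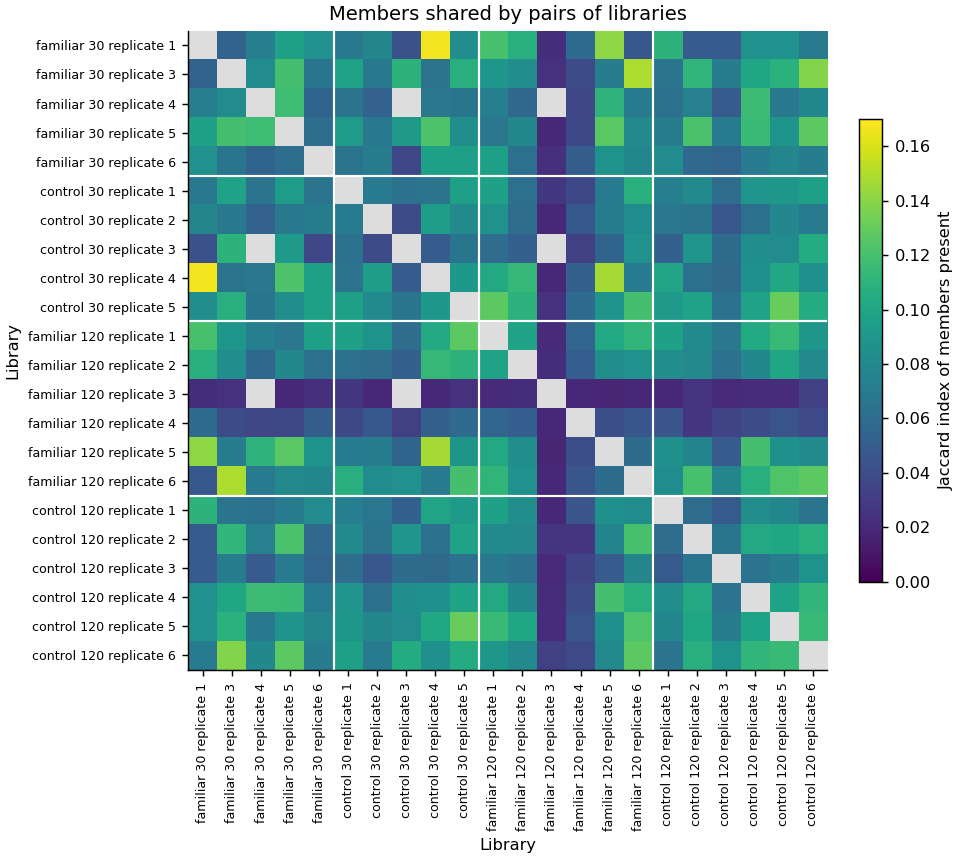
Jaccard index of members present (colour scale) for each pair of the 22 libraries, with libraries on both axes in the order of their groups and white lines between groups. Grey cells are the diagonal and the pairs among the 3 libraries named in the rule. The brightest cell is familiar 30 replicate 1 with control 30 replicate 4 at 0.167, and no block along the diagonal is brighter throughout than the rest.

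The exact combinations of libraries were varied. Members present in 3 libraries used 1229 of the 1482 combinations the rule allows. The most frequent was familiar 30 replicate 4, familiar 30 replicate 5 and familiar 120 replicate 5, held by 24 members on 16 chromosomes, and the next, held by 23, was familiar 30 replicate 1, control 30 replicate 4 and familiar 120 replicate 5. Members present in 5 libraries used 2847 of 23256 combinations, and 75.3% of them had a combination of their own. At most 7 members shared the same 5 libraries.

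Members close together on a chromosome shared more libraries than distant ones. Between consecutive members under 1 kb apart, the mean Jaccard index of their libraries was 0.232 (339 pairs), and 14.2% of such pairs had no library in common. The mean was 0.183 at 1 to 3 kb, 0.163 at 3 to 10 kb, 0.151 at 10 to 30 kb, 0.134 at 30 to 100 kb and 0.125 at 100 kb or more, where 39.0% of 2176 pairs had none in common.

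Few members were present in libraries of only 1 group. There were 47 (0.408%) in familiar 30 libraries only, 31 (0.269%) in control 30, 43 (0.373%) in familiar 120 and 55 (0.477%) in control 120. Over all 14762 regions present in 3 to 5 libraries the shares were 0.318%, 0.21%, 0.291% and 0.373%. The same members give both counts, because the regions left out are shared by libraries of different groups. Only familiar libraries held 576 members (5.0%, background 4.19%) and only control libraries 729 (6.32%, background 4.94%). Only libraries labelled 30 held 516 (4.48%, background 4.05%) and only those labelled 120 held 824 (7.15%, background 5.58%). There are 12 libraries labelled 120 and 10 labelled 30, and the named libraries, of which at most 1 can hold a member, include 2 familiar and 1 control library. All members are part of these backgrounds, and for control only and 120 only the same members give both counts. That the shares are close to their backgrounds is thus largely built in. By ranges of fish numbers, 58 members (0.503%, background 0.393%) were found only in libraries from 17 to 29, 215 (1.87%, background 11.4%) only from 43 to 59 and 192 (1.67%, background 1.3%) only from 69 to 80. The range 43 to 59 holds all 3 named libraries, so the rule itself takes its share below the background. For the other ranges the same members give both counts.

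Whether contact with a client before the test goes with a difference in called peaks at members was first compared at 30. The percent of each region under peaks was fitted in limma for all 52924 regions with a mean cover of 5 to 95%, and p-values were adjusted over all of them. All 11526 members were in that fit. No member passed the threshold of 0.05 on the adjusted p, and no region did (background 0%). At an unadjusted p under 0.05 in limma, 326 members (2.83%, background 1.72%) were higher in familiar fish and 240 (2.08%, background 1.27%) were lower. The median difference was 0 points over members and 0.444 points over all regions. Fisher's exact test of presence could make no call after adjustment, since its smallest possible p was 0.00794 and 0 members reached it, and 14 had an unadjusted exact p under 0.05, against a background of 0.463%. A member's exact p depends on its number of libraries of presence, which the rule holds at 3 to 5. A member present in all 5 libraries of 1 group and in no other could reach the smallest p at 30. The background over all regions has no such limit on presence, here and in the comparisons below, so the shares are not alike.

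A region needs 3 libraries to exist, so a member whose libraries all belong to 1 group entered only through the group where it is high. Its group difference is in part built in by the rule, and the cover of such members is a description. The member with the smallest p at 30 lay on chromosome 22 from 2849910 to 2850433 (524 bp). Peaks covered 0, 71.8, 100, 100 and 100% of it in the familiar 30 libraries (replicates 1, 3, 4, 5 and 6) and 0% in each of the other 17 libraries. All groups but familiar 30 were thus free of peaks, and familiar 30 replicate 1 was like them. The difference was 74.4 ± 13.2 points (SE), with an adjusted limma p of 0.395. The fit takes 1 spread from all 4 groups for each region. Here the SD was 43.3 points in familiar 30 and 0 in each other group. Groups at 0 outside the comparison thus lower the SE and the p, also for the other named members with such groups. Among peaks lying mostly within the member, the strongest had a -log10 q of 1.70. The peak of familiar 30 replicate 4 lay mostly outside the member and was not counted. This member is a region only through familiar 30 libraries. Without replicate 1, the only one of them at 0%, the difference was 92.9 points.

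The next, on chromosome 6 from 32979780 to 32980032 (253 bp), was covered by 85.8, 100, 100, 68.0 and 0% in the same familiar 30 libraries and by 0% in the other 17. The difference was 70.8 ± 12.8 points (SE, limma adjusted p = 0.395). Among peaks lying mostly within this member, the strongest had a -log10 q of 1.66. The peak of familiar 30 replicate 3 lay mostly outside the member and was not counted. Here replicate 6 was the familiar 30 library free of peaks, and without it the difference was 88.4 points. This member too is a region only through familiar 30 libraries. The third lay on chromosome 20 from 14949439 to 14950199 (761 bp) and was covered by 69.1, 62.7, 95.1, 100 and 0% in familiar 30 libraries and by 0% in all control 30 libraries. It was also present in control 120 replicate 6 (59.5%). Its difference was 65.4 ± 14.3 points (SE, limma adjusted p = 0.929), and 81.7 points without familiar 30 replicate 6, again the only one of its group at 0%.

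The calls at 30 thus hung on which library was left out. In limma, 1 member passed without familiar 30 replicate 1, 1 without control 30 replicate 2 and 1 without familiar 30 replicate 4 (background 0.00189% each). There were 3 without familiar 30 replicate 6 (background 0.00567%) and 1 without the 3 named libraries (background 0.00378%). Leaving out the library at 0% is a choice by outcome for the members named above, so these calls lend them no support. Values held at 0 and 100 are not described by limma's model, so an adjusted p near the threshold is uncertain.

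The same comparison was made at 120, where again no member passed (background 0%; lowest adjusted limma p over members 0.798). At an unadjusted limma p under 0.05, 142 members (1.23%, background 0.703%) were higher in familiar fish and 394 (3.42%, background 3.65%) lower. With each library's covered length as a covariate 359 (3.11%, background 1.57%) were higher and 299 (2.59%, background 2.26%) lower. The median difference was -2.10 points over members and -4.13 over all regions, and 0.30 and -0.758 points with the covariate. In Fisher's exact test the smallest possible p, 0.00216, needs presence in every library of 1 group and none of the other. Members are present in at most 5 libraries, so none could reach it. An unadjusted exact p under 0.05 was found for 1 member (background 0.185%).

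The member with the smallest p at 120 lay on chromosome 5 from 21304503 to 21305665 (1163 bp). Every familiar 120 library had a peak there, with cover from 26.1 to 100% and a median of 57.5%, and control libraries of both time labels had none. Familiar 30 replicates 4 and 5 covered 47.7 and 20.6%, and the other familiar 30 libraries 0%. The 3 libraries that made it present were all familiar 120. The difference at 120 was 57.2 ± 10.8 points (SE, limma adjusted p = 0.798), and the member passed under none of 27 other settings and sets of libraries. The member is present only through the group where it is high, so its difference is in part built in by the rule. All 8 libraries that touched it were familiar, which describes the values by which it was picked.

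On chromosome 9 from 17943225 to 17944148 (924 bp), the cover in control 120 libraries was 0% in replicate 1 and 63.5 to 81.2% in replicates 2 to 6, and 0% in all familiar 120 libraries. It is the sole member present in 5 libraries of 1 group. Control 30 libraries covered up to 49.2% and familiar 30 libraries up to 35.7%, with medians of 0%. Familiar minus control at 120 was -62.0 ± 12.2 points (SE, limma adjusted p = 0.798), and -74.4 points without control 120 replicate 1, the only one of its group at 0%. The member is present only through the group where it is high.

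On chromosome 17 from 8214852 to 8216139 (1288 bp), the control 120 libraries were covered by 0 to 100% with a median of 66.8%, and the familiar 120 libraries by 0%. Control 30 replicate 2 covered 19.9% and familiar 30 replicate 3 covered 19.2%. The difference at 120 was -61.4 ± 12.5 points (SE, limma adjusted p = 0.851), and -73.6 points without control 120 replicate 5, which alone of its group had no peak there. This member, too, is present only in control 120 libraries. In limma, 1 member passed at 120 without control 120 replicate 1 and 1 without control 120 replicate 5 (background 0.00189% each), and 1 without the 3 named libraries (background 0.00378%). The first was the chromosome 9 member and the second the chromosome 17 member, each without its only control 120 library at 0%. That is a choice by outcome, so these calls lend them no support.

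**Figure D5:**
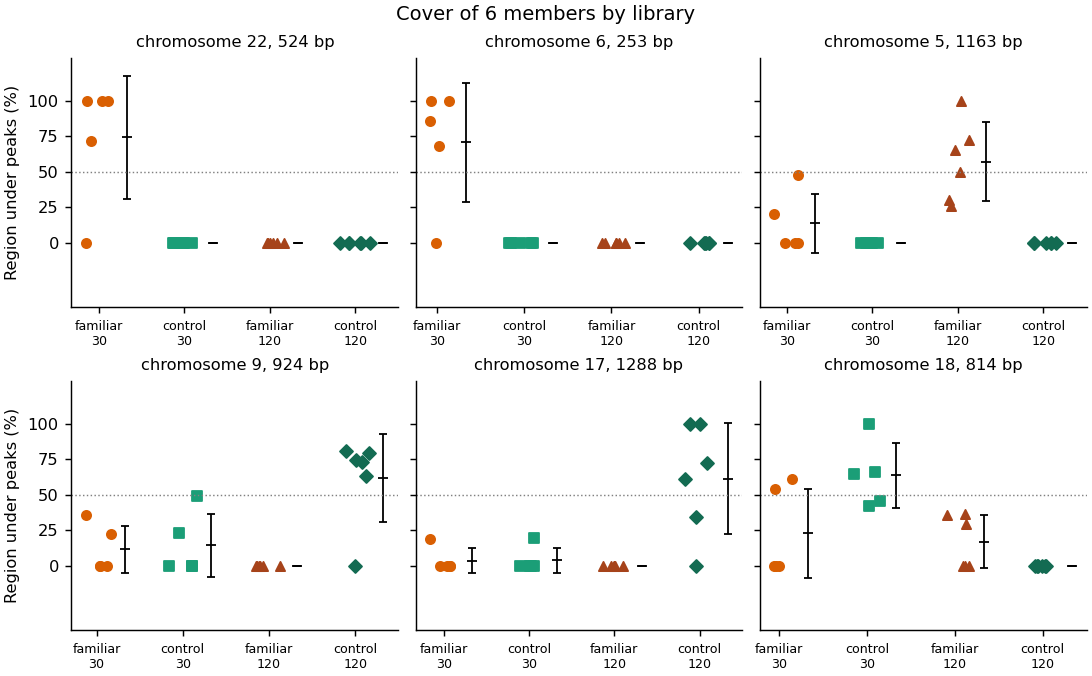
Percent of a member's bases under peaks (y axis) in each library by group (x axis), for 6 members named in the text and identified by chromosome and length. Points are libraries (5, 5, 6 and 6 a group), black bars are the mean ± SD and the dotted line is the 50% that counts as present. In the 524 bp member on chromosome 22, 4 familiar 30 libraries lie at 71.8 to 100% and the other 18 libraries at 0%.

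The time labels were compared next, within controls. No member passed (background 0%; lowest adjusted limma p over members 0.766). At an unadjusted limma p under 0.05, 294 members (2.55%, background 1.75%) were higher at 120 and 303 (2.63%, background 1.45%) lower, and the median difference was 0.220 points against 0 over all regions. Fisher's exact test, again with a smallest possible p of 0.00216 that no member reached, had 7 members at an unadjusted exact p under 0.05 (background 0.299%). Leaving out each library in turn called no member in limma either, with a lowest adjusted p of 0.0763.

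On chromosome 18 from 17419372 to 17420185 (814 bp), all control 30 libraries had a peak, with 64.7, 42, 45.6, 99.6 and 66.3% covered, and no control 120 library had one. Familiar 30 replicates 1 and 4 covered 60.9 and 53.8% and the other familiar 30 libraries 0%, and familiar 120 libraries covered up to 36.2%. The difference in controls was -63.7 ± 12.8 points (SE, limma adjusted p = 0.766). The chromosome 17 member described above differed in the other direction, by 57.4 ± 13.1 points (SE, limma adjusted p = 1). On chromosome 23 from 1662045 to 1662640 (596 bp), control 120 libraries were covered by 0 to 100% with a median of 74.1%, no library labelled 30 had a peak, and familiar 120 replicate 6 covered 56%. Its difference was 63.2 ± 14.6 points (SE, limma adjusted p = 1). The chromosome 18 member was present only in libraries labelled 30, and the chromosome 23 member only in libraries labelled 120. Their differences between time labels are thus in part built in by the rule.

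In familiar fish no member passed between 120 and 30 (background 0%; lowest adjusted limma p 0.221). At an unadjusted limma p under 0.05, 144 members (1.25%, background 0.695%) were higher at 120 and 475 (4.12%, background 3.49%) lower. With covered length as a covariate 457 (3.96%, background 2.17%) were higher and 291 (2.52%, background 1.59%) lower. The median difference was -3.33 points over members and -4.81 over all regions, and 1.87 and -0.195 points with the covariate. Fisher's exact test, with the same smallest possible p and no member at it, had 12 members at an unadjusted exact p under 0.05 (background 0.306%). This comparison shares its familiar 30 libraries with the one at 30, and the chromosome 22 and chromosome 6 members above led it too, at -74.4 ± 12.6 and -70.8 ± 12.3 points (SE, limma adjusted p = 0.221 for both).

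The third member by p, on chromosome 20 from 5416367 to 5416987 (621 bp), was covered by 76.5, 65.5, 0, 92.4 and 100% in familiar 30 libraries (replicates 1, 3, 4, 5 and 6) and by 0% in all libraries labelled 120. Control 30 replicate 5 covered 38.5%. The difference was -66.9 ± 12.6 points (SE, limma adjusted p = 0.455), and -83.6 points without familiar 30 replicate 4, the only one of its group at 0%. It is present only in familiar 30 libraries. Over all members, limma called 22 without familiar 30 replicate 6, all lower at 120 (0.191% of members, background 0.0529%). That background is 28 regions, and the 22 members are among them. Limma called 1 each when familiar 30 replicate 1, control 30 replicate 2 or familiar 30 replicate 4 was left out (background 0.00189% each) and 1 without the 3 named libraries (background 0.00378%). The chromosome 6 member was among the 22. Leaving out a familiar 30 library at 0% is again a choice by outcome for the members named above, so these calls lend them no support.

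Whether the difference between familiar and control fish changed from 30 to 120 was tested as an interaction. No member passed (background 0%; lowest adjusted limma p 0.9999). At an unadjusted limma p under 0.05, 218 members (1.89%, background 0.926%) had a larger familiar minus control difference at 120 and 491 (4.26%, background 3.22%) a smaller one. Leaving out familiar 30 replicate 1 or replicate 6 called 1 member each (background 0.00189% each). The limits given above for calls without 1 library hold for these too.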

How the data were processed

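H3K27ac CUT&RUN broad peak lists of 23 libraries were used, 1 per library. Per the submitters' processing notes, Trimmomatic 0.39, FastQC, Bowtie2, SAMtools, Picard and MACS2 were used, and peaks were called by library, as the separate lists show. Genome build, MACS2 settings and the use of input: not given in the sources used here. The authors deposited start and end, a score (nearly always 10 times the -log10 q without decimals), a fold enrichment ratio, and -log10 p and -log10 q for each peak. Read depth is unknown, so no counting interval is given, and a shallower library can have fewer and narrower peaks.

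Groups and fish numbers came from titles. Separate fish are not otherwise stated, so p-values reflect only the scatter of these libraries, which may be technical. The members, lists and tests were chosen with earlier results of these data known. Percent cover was fitted with limma 3.58.1 in R 4.3.3, 4 groups in 1 model, with Benjamini-Hochberg adjustment. The fit was tried on shuffled values with made differences. Their spread within a group was smaller than at many named members, so the trial does not bear on the p-values of those members. Library values were compared by exact permutation tests, and the planned p-values for the correlation with covered length are not given, because both measures come from the same peaks. Python 3.11.15, numpy 2.4.6, scipy 1.17.1, pandas 2.3.3 and matplotlib 3.10.9 were used. Named members are the 3 with the smallest limma p in each of 4 comparisons, the 5 longest, the 5 with the highest -log10 q of a peak lying at least 50% within, and those present in 5 libraries of 1 group. No genome or annotation was used here, so nearest genes, sequences, gene lists and cell type markers were not analysed here. Alternatives were other presence limits, gap lengths and library minimums, stricter peaks (-log10 q of 5 or more), all 23 libraries, covered length as covariate, ranges of fish numbers as block, only the 2 groups compared, Fisher's exact test and leaving out libraries.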

Additional observations from a re-analysis of the deposited data

Results flagged for a closer look

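In 22 sets of library values examined (chance marks about 1 in 20 groups), 2 values stood far from the rest of their group. The peaks at members were widest in familiar 120 replicate 3, with a median width of 954 bp, beside 608 to 673.5 bp in the other familiar 120 libraries. This library also had the fewest members present, 371, and a median -log10 q of 2.07 at them. Set beside the 5 familiar 30 libraries used, the library left out, familiar 30 replicate 2, had 0.177% of its covered length in members, against 1.87 to 2.59%. Members were built and chosen from the peaks of the other libraries only, so a lower share in the library left out is in part built in.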

How the results depend on the processing

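The comparisons use the part of a region under peaks and not the fold or q of the peaks, and read depth is unknown. The number of members was 20808 with presence at 80%, 6279 with presence at any base, 6229 with bases under at least 4 libraries and 3109 with stricter peaks (-log10 q of 5 or more), and 11319 to 12484 leaving out each library. Joining no gaps gave 12408 members and joining gaps up to 1000 bp gave 9922.

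For members present, control 120 minus 30 was -8.43 at 80%, and -0.333 without the 3 named libraries, and with the stricter peaks familiar minus control at 30 was -24.0 and familiar 120 minus 30 was 58.3. With those peaks the share of covered length differed by -0.0413 points at 30 and 0.178 points between time labels in familiar fish. None of these passed the threshold of their exact permutation test. Leaving out each library in turn, members present differed by -25.9 to 285 (familiar minus control at 30), -539 to -70.2 (at 120), -0.333 to 316 (120 minus 30 in controls) and -495 to -44.6 (in familiar fish). The share of covered length differed by -0.0347 to 0.200 points at 30, and sharing within minus between groups by -0.0107 to 0.00432 at 30 and -0.00553 to 0.00734 at 120. Pearson's r with covered length stayed between 0.792 and 0.922, in alternatives added after seeing the data.

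Calls in limma numbered 1 at 30, 1 at 120 and 1 in familiar fish between time labels without the 3 named libraries, and 0 to 3, 0 to 1 and 0 to 22 leaving out each library. They numbered 0 in controls and 0 to 1 for the interaction. With all 23 libraries, only the stricter peaks, covered length as covariate, ranges of fish numbers as block or only the 2 groups compared, 0 members passed; the interaction was not fitted with 2 groups. No paired analysis was possible because fish numbers differ between all libraries.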

Other observations

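Short members with strong peaks lay near chromosome ends more often than members as a whole. Ends are position 1 and the last peak of a chromosome, and these sets were chosen after their values were seen and carry no test. Of the 62 members touched in at most 5 libraries and holding a peak with a -log10 q of at least 5, 12 (19.4%) lay within 1 Mb of an end, against 5.10% of all members and 5.2% of all regions. Of the 6 with a -log10 q of at least 10, 3 did. The median best -log10 q of members touched in at most 5 libraries was 1.93, and the 99th percentile was 4.99.

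A pair of these members had the same libraries. The 343 bp member on chromosome 8 that lay 0.249 kb from the last peak position, and the 658 bp member on chromosome 20 from 22383851 to 22384508, 127 kb from the end, were each touched in 5 libraries: familiar 120 replicates 1 and 5, control 120 replicate 5, control 30 replicate 5 and familiar 30 replicate 6. No other member was present in exactly these libraries. The -log10 q on chromosome 20 was 7.28, 7.34, 8.49, 8.74 and 5.61 in that order, so that peaks were strong in each of the 5 and listed in none of the other 17. On chromosome 8 it was 3.95, 4.23, 21.96, 3.08 and 5.99. The libraries come from all 4 groups.

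Only the 6225 members touched in at most 5 libraries were examined next. At 3 of them, every touching library had the member present with a -log10 q of at least 5. They were the chromosome 20 member, the 221 bp member on chromosome 14 from 29700864 to 29701084, and a 215 bp member on chromosome 1 from 4003360 to 4003574. The last was covered by 96.7 to 100% in familiar 120 replicates 2 and 5, control 120 replicate 6 and familiar 30 replicate 6, with -log10 q values of 6.84, 9.40, 8.16 and 9.78.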
